A study of Homo sapiens with 3 samples.

Results

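The data cover 9 genes that hold back the cell cycle or belong to the p53 growth arrest response: the CDK inhibitors CDKN1A, CDKN1B, CDKN1C, CDKN2A, CDKN2B, CDKN2C and CDKN2D, the p53 target GADD45A, and MDM2. They were found as the genes whose RefSeq transcript is the target of an array probe, which gave 13 probes for the 9 genes, among 25006 genes named on the array. CDKN1B and CDKN2A had 2 probes each and MDM2 had 3. U87, a glioblastoma cell line, had been stably transfected under G418 selection with a GFP-tagged receptor for insulin-like growth factor 1, and 1 clone of each kind was used. The clone U87WT 5 (U87WT) carries GFP-IGF1R, a receptor that can enter the nucleus, and the clone U87Mut 5 (U87Mut) carries GFP-IGF1R1025x-1100x-1120x, which is labeled as non-nuclear. Both clones also keep their own IGF1R. RNA of the clones was set against each other on 3 arrays: after 24 h in FBS-free medium, after 24 h with 50 nM IGF1, and after 24 h with IGF1 and OSI906, an inhibitor of IGF1R and the insulin receptor. OSI906 was given at 0.5 μM, from 1 h before IGF1, by the description of the study and, for the dose, by the title label; another label of that array reads 500 μM, and the treatment label gives the preincubation as 24 h. Every array held U87WT in the Cy5 channel and U87Mut in the Cy3 channel, without a dye swap, so that clone and dye cannot be told apart, and no condition was repeated. With 1 clone of each kind, what belongs to the receptor and what belongs to the clone cannot be told apart either.

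Cyclin-dependent kinases (CDKs) drive cells through the cycle, and their inhibitors fall into the Cip/Kip family, which acts mainly on CDK2 complexes, and the INK4 family, which binds CDK4 and CDK6. The transcription factor p53 induces CDKN1A and GADD45A, which slow the cycle after damage or stress, and MDM2, which marks p53 for degradation. Signaling from IGF1R through AKT keeps FOXO factors out of the nucleus, and FOXO factors are known to induce CDKN1B and GADD45A. U87 cells are known to have lost the CDKN2A locus, which is why the CDKN2A probes had been chosen as a check of the background.

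GADD45A was the member that differed most between the clones, with about 1 log2 unit less signal in U87WT than in U87Mut on each array. CDKN1B was higher in U87WT by 1 of its probes in the test over the 3 arrays. So was the signal of 1 CDKN2A probe, whose target in these cells was not examined. CDKN1A, CDKN1C, CDKN2B, CDKN2C, CDKN2D and MDM2 did not pass that test. Within U87WT, CDKN2B and 1 CDKN1B probe gave more signal with OSI906 than with IGF1 alone. CDKN2B was dim in U87WT, at 12 units over background with IGF1 and 48 with OSI906. It lies beside the CDKN2A locus, which U87 cells are known to have lost.

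The arrays held 62976 spots each, of which 60901 were not controls, and 0 were saturated. Spots marked as not uniform numbered 384 on the serum-free array, 572 on the IGF1 array and 5 on the OSI906 array. No member spot was among them (0 marked out). Both channels were well above background, by the mark of the scanner software, for 50.1% to 52.8% of probes. The Cy3 channel was dimmer on the IGF1 array: its 75th percentile of brightness was 136, against 187 on the serum-free array and 157 on the OSI906 array. Spots of the same probe on 1 array had a median SD of 0.0452 to 0.0502 in the log2 ratio, which is a technical spread only. The IGF1R probe, which checks no label because both clones carry the transgene, gave log2 ratios of 0.07, 0.23 and 0.09. Of the markers of a glioma cell line, 6 of 6 were well above background in all 6 channels (VIM, NES, CD44, SPARC, FN1 and CHI3L1). So were 1 of 4 epithelial markers (EPCAM), 2 of 4 leukocyte markers (CD14 and PTPRC) and 3 of 3 neuronal ones (RBFOX3, SYT1 and SNAP25), and their part in the results was not tested. The limma test over the 3 arrays that is described below called SPARC, EPCAM and SNAP25 higher in U87WT and no other marker.

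Signal was judged first, as the median brightness of a spot minus its local background. By the mark of the scanner software, 10 of 13 probes and 7 of 9 genes (by the brightest probe) were well above background in all 6 channels. The exceptions were CDKN1C, CDKN2C and the second CDKN2A probe. The 308 negative control spots of each array stayed at or below 5 scanner units in 99% of cases in every channel, which is the level below which no signal can be read. The values below are given in the order serum-free, IGF1, IGF1 with OSI906.

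**Figure D1:**
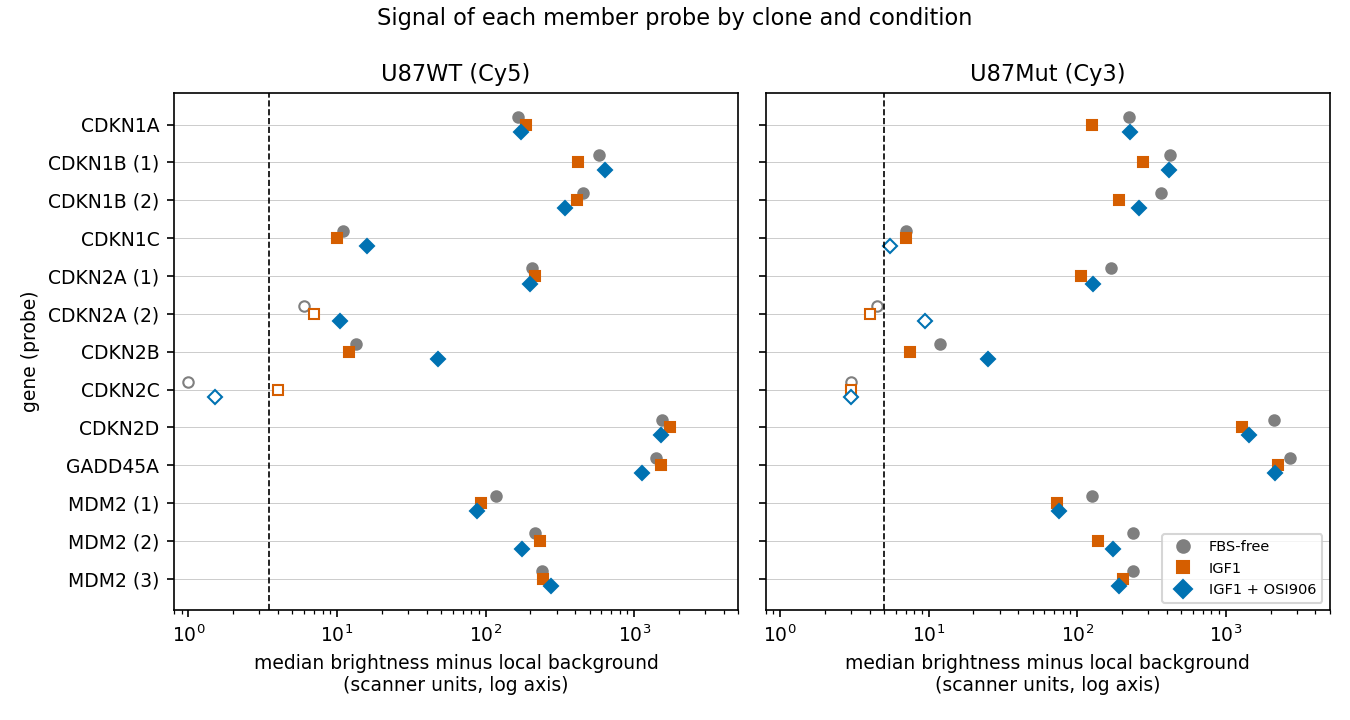
Median brightness minus local background (scanner units, log axis) of the 13 member probes, for U87WT (Cy5, left) and U87Mut (Cy3, right), with 1 symbol per array. Filled symbols are well above background by the scanner software, open symbols are not, and the dashed line is the highest 99th percentile of the negative controls of that channel (3.5 in Cy5 and 5 in Cy3). CDKN2C lies at or below 4 units throughout, whereas the first CDKN2A probe lies above 100 units in all 6 channels.

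Among the Cip/Kip genes, CDKN1A, which codes for p21, the best known inhibitor induced by p53, had a net brightness of 164.5, 186 and 173 in U87WT and of 223.5, 125 and 228 in U87Mut. Before any normalization U87WT was thus nearly flat, and U87Mut was lowest with IGF1, on the array whose Cy3 channel was dimmer as a whole. After normalization CDKN1A in U87Mut was 0.26 log2 units lower with IGF1 than in FBS-free medium. CDKN1B codes for p27, the inhibitor that accumulates in resting cells. Its first probe (A_23_P204696) had 575, 420 and 640 units in U87WT and 419.5, 278.5 and 411.5 in U87Mut. Its second probe (A_24_P81841) had 453, 415 and 343 units in U87WT and 365, 192 and 260 in U87Mut. Both probes were brighter in U87WT on every array, but only the first was brightest in U87WT with OSI906. CDKN1C, which codes for p57, was dim, at 11, 10 and 16 units in U87WT and 7, 7 and 5.5 in U87Mut, where the last was not well above background.

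The promoters of CDKN1A and CDKN1B, the Cip/Kip genes with signal well above background everywhere, are shown as the regions from which these genes are transcribed. Each is the stretch of 250 bases before the start site in RefSeq (GRCh38.p14, plus strand), at chr6:36678464-36678713 for CDKN1A and at chr12:12717118-12717367 for CDKN1B. Capitals mark matches on either strand to the GC box GGGCGG and the CCAAT box.
CDKN1A: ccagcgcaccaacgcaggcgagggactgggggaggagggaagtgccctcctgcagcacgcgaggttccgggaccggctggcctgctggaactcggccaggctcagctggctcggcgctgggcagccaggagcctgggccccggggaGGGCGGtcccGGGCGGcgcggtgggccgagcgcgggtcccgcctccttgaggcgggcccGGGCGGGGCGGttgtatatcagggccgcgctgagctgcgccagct
CDKN1B: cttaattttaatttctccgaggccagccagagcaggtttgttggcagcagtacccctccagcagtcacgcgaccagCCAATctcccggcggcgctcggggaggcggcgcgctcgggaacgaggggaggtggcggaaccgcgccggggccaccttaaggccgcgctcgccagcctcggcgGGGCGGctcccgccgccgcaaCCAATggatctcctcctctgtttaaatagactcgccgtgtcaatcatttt
The CDKN1A window held 4 GC boxes, the last 2 of which overlap, and 0 CCAAT boxes. The CDKN1B window held 1 GC box and 2 CCAAT boxes. Over all 35116 promoter windows of the same length, 42.6% held a GC box and 32% a CCAAT box. The forkhead motif GTAAACA was found in 0 of these 2 windows and in 2.98% of all windows. Matches of letters describe these windows and were not tested against the expression values.

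Of the INK4 genes, CDKN2A codes for p16 and, in another reading frame, for ARF, an inhibitor of MDM2. Its first probe (A_23_P43490) was well above background in all 6 channels, at 203.5, 214 and 200 units in U87WT and 168.5, 105.5 and 127 in U87Mut. Its second probe (A_33_P3411628) was dim, with 6, 7 and 10.5 units in U87WT and 4.5, 4 and 9.5 in U87Mut, and was well above background only in U87WT with OSI906. The probes of the gene that had been meant as a background check therefore disagreed, and the first does not serve as one. Of 9 genes that lie around CDKN2A on the short arm of chromosome 9, 8 had a probe and 0 of these were well above background in all 6 channels. MTAP, a coding neighbor that is often lost together with CDKN2A, was marked well above background in 3 of 6 channels, with 3 to 21 units in U87WT and 2 to 27.5 in U87Mut. What the first CDKN2A probe binds in these cells was not tested.

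CDKN2B, which lies beside CDKN2A and codes for p15, had 13.5, 12 and 48 units in U87WT and 12, 7.5 and 25 in U87Mut. Both clones were brightest with OSI906. CDKN2C, which codes for p18, was not well above background in any channel, with 1 to 4 units, so no difference can be read for it at this signal. CDKN2D, which codes for p19, had 1541, 1745 and 1507 units in U87WT and 2096, 1292 and 1434 in U87Mut.

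GADD45A, which binds PCNA and CDK1 and takes part in arrest and repair after stress, had 1410.5, 1505 and 1128 units in U87WT and 2698, 2239 and 2147.5 in U87Mut. The U87Mut channel was thus the brighter one on each array, before any normalization of the dyes. MDM2 by its brightest probe (A_33_P3361707) had 240, 244.5 and 275 units in U87WT and 237, 202.5 and 191 in U87Mut. Its other probes, A_24_P925664 and A_23_P502750, lay between 176 and 233 and between 88 and 118 units in U87WT, and between 138 and 238 and between 73 and 126 in U87Mut. The ranges of the clones overlapped for these 2 probes, and those of the brightest probe lay next to each other.

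The clones were then compared by the log2 ratio of U87WT over U87Mut after background correction and loess within each array. The correction adds 50 units to every signal, so that the ratios of dim probes are smaller than the true ones. A log2 ratio past 0.5 in either direction was counted, without a p value since each array stands alone. With the brightest probe of each gene, 1 of 9 members lay below -0.5 on each array, GADD45A, against 3.77%, 2.89% and 3.48% of all genes. Of genes well above background, the shares were 6.14%, 4.66% and 5.66%. Above 0.5 lay 0, 0 and 1 of 9, against 4.02%, 4.62% and 3.6% of all genes and 6.34%, 7.25% and 5.75% of genes well above background. The 1 member was CDKN1B by its first probe on the OSI906 array. With a limit of 0.5 SD over all genes of each array, the kind of limit named in the methods of the study, which came to 0.143, 0.142 and 0.135, more members lay past it. Above it lay 2, 1 and 5 of 9, against 17.1%, 21.3% and 18.8% of all genes, and below it 3, 3 and 2 of 9, against 18.4%, 16.3% and 20.4%. GADD45A was below it on all 3 arrays. The first CDKN2A probe, whose target in these cells was not tested, was above it on all 3.

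The ratio of GADD45A was -0.87 in FBS-free medium, -1.17 with IGF1 and -1.02 with OSI906, which is 1.83-fold, 2.25-fold and 2.03-fold more signal in U87Mut. Among genes well above background, 1.51%, 0.546% and 0.476% had a lower ratio on these arrays. With the main settings the 3 conditions differed by 0.30 log2 units or less. Under the alternatives the GADD45A ratio with IGF1 ran from -1.39 to -0.69. In RNA of whole cultures, fewer cells with a transcript and less of it per cell cannot be told apart.
The first CDKN1B probe gave 0.48, 0.06 and 0.51, and the second 0.35, 0.50 and 0.28. With the main settings both probes lay on the same side on each array. They differed most with IGF1, where the first was near 0 and the second at its largest. Under the alternatives, the mean of both probes included, the CDKN1B ratio with IGF1 ran from -0.24 to 0.39. It kept its sign in 7 of 10. CDKN1A gave -0.27, 0.05 and -0.37 and was likewise near 0 on the IGF1 array. There its ratio ran from -0.08 to 0.31 under the alternatives and also kept its sign in 7 of 10. Among these alternatives, a limit of 1 and a filter for probes well above background could not move any such ratio. The mean of probes could not move that of a gene with 1 probe.
The first CDKN2A probe gave 0.27, 0.38 and 0.43, and the second, near background, 0.03, 0.05 and -0.01. CDKN2D gave -0.39, -0.17 and -0.05, and CDKN2B 0.02, 0.04 and 0.30. With IGF1 the CDKN2D ratio ran from -0.51 to 0.29 under the alternatives and kept its sign in 9 of 10. CDKN1C gave 0.07, 0.02 and 0.21. On the last array U87Mut was not well above background, so the size of that ratio cannot be relied on. The MDM2 probes gave between -0.19 and 0.37, and no probe kept 1 sign on all arrays.

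**Figure D2:**
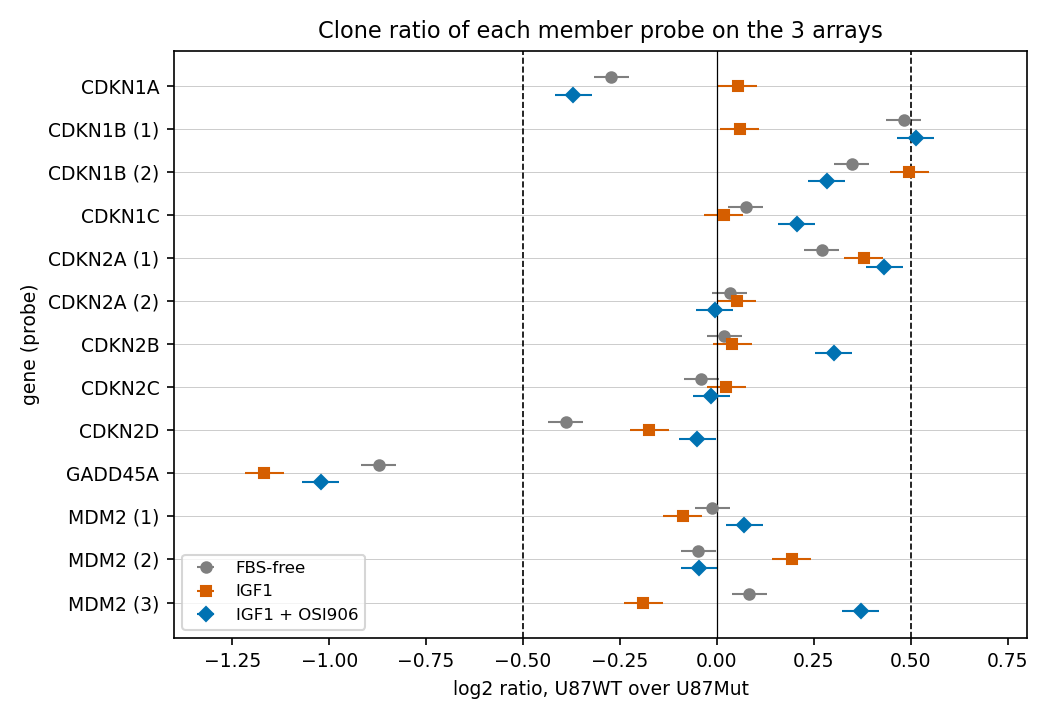
Log2 ratio of U87WT over U87Mut for each member probe on the 3 arrays; bars are the median SD of replicate spots of 1 probe on that array, a technical spread (0.0452, 0.0502 and 0.0476), dashed lines mark -0.5 and 0.5. Probes of a gene are numbered in the order of the signal plot, so that CDKN1B (1) is A_23_P204696 and MDM2 (3) is A_33_P3361707. GADD45A lies beyond -0.5 on all 3 arrays, from -0.87 to -1.17.

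The test that the series allows takes the 3 arrays as replicates of the clone difference, so that any response to the treatments is part of its error. With limma and Benjamini-Hochberg adjustment over 58201 probes, 8.77% of all probes were called at an adjusted p under 0.05 (4.47% higher and 4.31% lower in U87WT), and 17.9% of the probes well above background. Of the 13 member probes, 3 were called, all among the 10 well above background. GADD45A was lower by a mean log2 ratio of -1.02 ± 0.0643 (SE, n = 3 arrays; limma adjusted p = 0.00404), lower on 3 of 3 arrays. The first CDKN2A probe was higher by 0.36 ± 0.045 (limma adjusted p = 0.0158), on 3 of 3 arrays. Whether that signal is CDKN2A transcript was not tested, as U87 cells are known to have lost the locus. The second CDKN1B probe was higher by 0.38 ± 0.0524 (limma adjusted p = 0.0205), on 3 of 3 arrays. The first CDKN1B probe, also above 0 on 3 of 3 arrays, had a similar mean of 0.35 with a larger error of 0.100 and was not called (limma adjusted p = 0.128).

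The probes that were not called had the following means. CDKN1A had -0.20 ± 0.0893 (limma adjusted p = 0.312), and CDKN2D -0.21 ± 0.0722 (limma adjusted p = 0.199), below 0 on 2 and 3 of 3 arrays. CDKN1C and CDKN2B were above 0 on 3 of 3 arrays with adjusted p of 0.351 and 0.414 by limma. The 3 MDM2 probes had limma adjusted p between 0.734 and 0.931.
These calls depended on the processing and on single arrays. GADD45A kept a mean between -1.10 and -0.91 under 10 of 10 alternatives and its ratio on each array lay past -0.5 under each alternative, but its call was lost without the OSI906 array (limma adjusted p = 0.0545), with the processed signals of the scanner software (0.145) and with median instead of loess normalization (0.156). Its mean could not move with the trend of the prior or the filter for probes well above background. Its ratios could not move with that filter, the limit of 1 or the mean of probes. Under the last 2 settings limma called 0 of all probes, with 10128 and 5182 at an unadjusted p under 0.05. CDKN2A and CDKN1B lost their calls under the same settings, and also with all spots in the background fit (limma adjusted p = 0.358 and 0.293) and with the deposited ratios (0.334 and 0.314). Without the serum-free array the second CDKN1B probe lost it (limma adjusted p = 0.09) and CDKN2A did not. Without the IGF1 array 5 member probes were called by limma, CDKN1A (0.0234) and the first CDKN1B probe (0.00645) among them. Calls among all probes rose as well, from 5107 to 6284.

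Within each clone the normalized log2 intensity of 2 arrays was compared, which holds no replicate and takes no p value, and in which array and condition cannot be told apart. Past 0.5 with OSI906 against IGF1 in U87WT lay 2 of 9 members, both higher, against 2.13% of all genes that were higher. Of genes well above background, 3.45% were higher. With OSI906 against FBS-free medium in U87WT it was 1 of 9, CDKN2B, against 1.39% of all genes and 2.26% of genes well above background. In the other comparisons 0 of 9 lay past 0.5, against 2.98% of all genes for IGF1 in U87WT, and 1.57%, 1.86% and 0.913% for IGF1 against FBS-free medium, OSI906 against IGF1 and OSI906 against FBS-free medium in U87Mut. The IGF1 array enters both the comparison with FBS-free medium and that with OSI906, so a deviation of that array appears in both with opposite sign.

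By its first probe, CDKN1B in U87WT was 0.46 lower with IGF1 than in FBS-free medium and 0.74 higher with OSI906 than with IGF1, that is 1.67-fold. In U87Mut the same probe differed by -0.04 and 0.29. The second probe in U87WT differed by -0.17 and -0.06, and in U87Mut by -0.32 and 0.16. The probes of CDKN1B therefore disagreed on OSI906 in U87WT, where the mean of both left only CDKN2B past 0.5.
CDKN2B was 0.60 higher in U87WT with OSI906 than with IGF1, 1.52-fold, and 0.56 higher than in FBS-free medium. In U87Mut it was 0.34 and 0.28 higher. The probe was dim and its gene lies beside the CDKN2A locus, which U87 cells are known to have lost. Whether its signal is CDKN2B transcript was not tested. Against IGF1 in U87WT, CDKN2B lay past 0.5 under 9 of 9 alternatives, with values from 0.52 to 2.32, the last with the processed signals. CDKN1B by its first probe did so under 8 of 9, from 0.34 to 0.89. These counts include a limit of 1 and a filter for probes well above background, which could not move either value. Nor could the mean of probes move CDKN2B, which has 1 probe. Of the 8 genes around CDKN2A with a probe, 3 were higher and 5 lower in each clone with OSI906 than in FBS-free medium. Among these MTAP was 0.34 higher in U87WT and 0.55 higher in U87Mut, which was not tested.
CDKN1A in U87Mut was 0.26 lower with IGF1 and 0.49 higher with OSI906 than with IGF1. In U87WT both differences were 0.07. GADD45A in U87Mut was 0.28 higher with IGF1 and 0.32 lower with OSI906 than with IGF1, and in U87WT it differed by -0.01 and -0.17. Its net brightness in U87Mut was lower with IGF1 (2239) than in FBS-free medium (2698), so the rise appeared only after normalization. Under the alternatives that rise ran from 0.06 to 0.39. The difference between the clones in these responses cannot be tested with 1 array per condition.

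**Figure D3:**
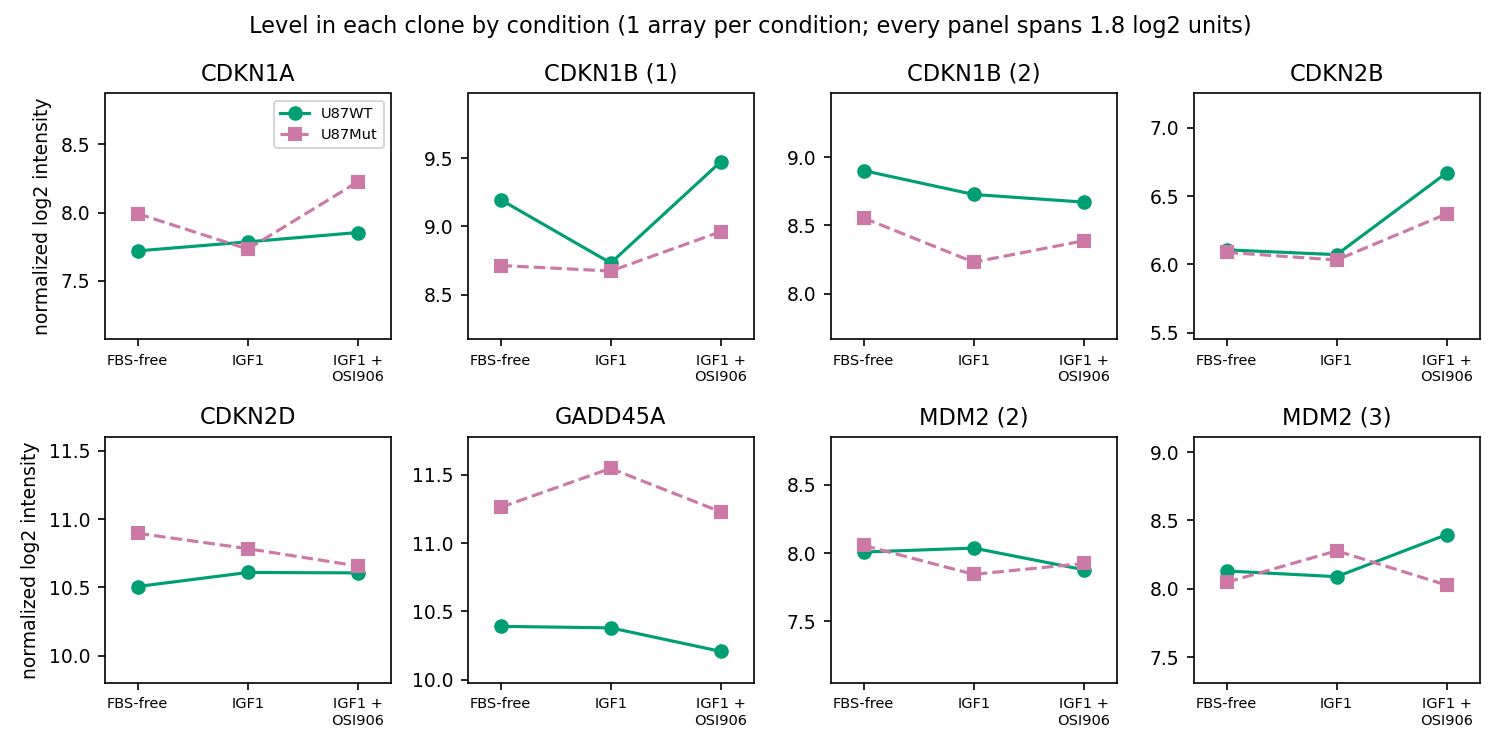
Normalized log2 intensity (y axis, each panel spanning the same range of log2 units) of 6 members in U87WT (circles) and U87Mut (squares) in the 3 conditions, 1 array each, without error bars. CDKN1B (1) and CDKN2B are 0.74 and 0.60 higher in U87WT with OSI906 than with IGF1, CDKN1B (2) is not, and the lines of GADD45A stay apart in all 3 conditions.

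Other genes of the pathway were counted by their brightest probe. Of 27 further genes that p53 induces, 5 were higher, 5 were lower and 17 were not called in the limma test over the arrays, with a median mean ratio of 0.05. Of all probes well above background, 8.98% were called higher and 8.94% lower. Their medians on the arrays were 0.13, 0.11 and -0.08, against -0.0019, 0.009 and -0.0037 for all genes. Lower were GDF15, a stress-induced cytokine, at -1.56, -1.15 and -1.42 (limma adjusted p = 0.00376), and SESN2, an inhibitor of mTORC1, at -1.16, -0.96 and -0.55 (limma adjusted p = 0.0196). TIGAR, a phosphatase that lowers glycolytic flux, was higher at 0.64, 0.73 and 0.51 (limma adjusted p = 0.00666). The pro-apoptotic BAX gave -1.15, -0.04 and -0.79 and was not called (limma adjusted p = 0.172). Of p53 and its regulators, 0 of 8 were called by limma, the largest being MDM4, a partner of MDM2, at -0.31, -0.45 and -0.05 (limma adjusted p = 0.153). Of 3 genes named after GADD45, 0 were called, with GADD45B at -0.17, -0.12 and 0.23 and GADD45GIP1 at -0.17, -0.15 and -0.11.

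Of 16 CDKs, cyclins, RB family and E2F genes, the targets and effectors of the inhibitors, 7 were lower, 1 was higher (CDK6) and 8 were not called by limma, beside the same 8.98% and 8.94% of probes. On the arrays 7, 7 and 6 of 16 lay below -0.5, against 6.14%, 4.66% and 5.66% of genes well above background. The cyclin CCND1, which activates CDK4 and CDK6, gave -1.39, -1.18 and -1.17 (limma adjusted p = 0.00278), E2F2 -1.62, -1.74 and -1.26, CCNE2 -1.11, -1.29 and -0.91 and E2F1 -1.01, -0.87 and -0.77. Of 7 genes for the turnover of p27, 1 was lower and 6 were not called by limma. The 1 was CKS1B, a cofactor of the ubiquitin ligase for p27, at -0.99, -1.17 and -1.05 (limma adjusted p = 0.00278), while CUL1 gave -0.19, -0.25 and -0.63 and was not called. Of 14 proliferation genes, 11 were lower and 3 were not called by limma, beside 8.94% of probes called lower, with array medians of -0.63, -0.74 and -0.75. TOP2A, a topoisomerase of dividing cells, stood apart at -0.80, 0.74 and -1.04 and was not called (limma adjusted p = 0.659). Among those called were the replication genes MCM2 (-1.51, -1.44 and -1.55), MCM5 (-1.62, -1.44 and -1.24) and PCNA (-0.93, -0.87 and -1.04) and the mitotic cyclin CCNB2 (-0.69, -1.20 and -0.90). Without the IGF1 array limma called 12 of the proliferation genes and 8 of the CDK and cyclin list lower, with all spots in the background fit 3 and 3, and with the processed signals 0 and 0. Of all probes it called 3228, 557 and 0 lower under these settings, against 2506 with the main ones. The medians of these 2 lists stayed below 0 in 9 of 9 alternatives, while that of the p53-induced genes changed sign, from -0.02 to 0.11.

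**Figure D4:**
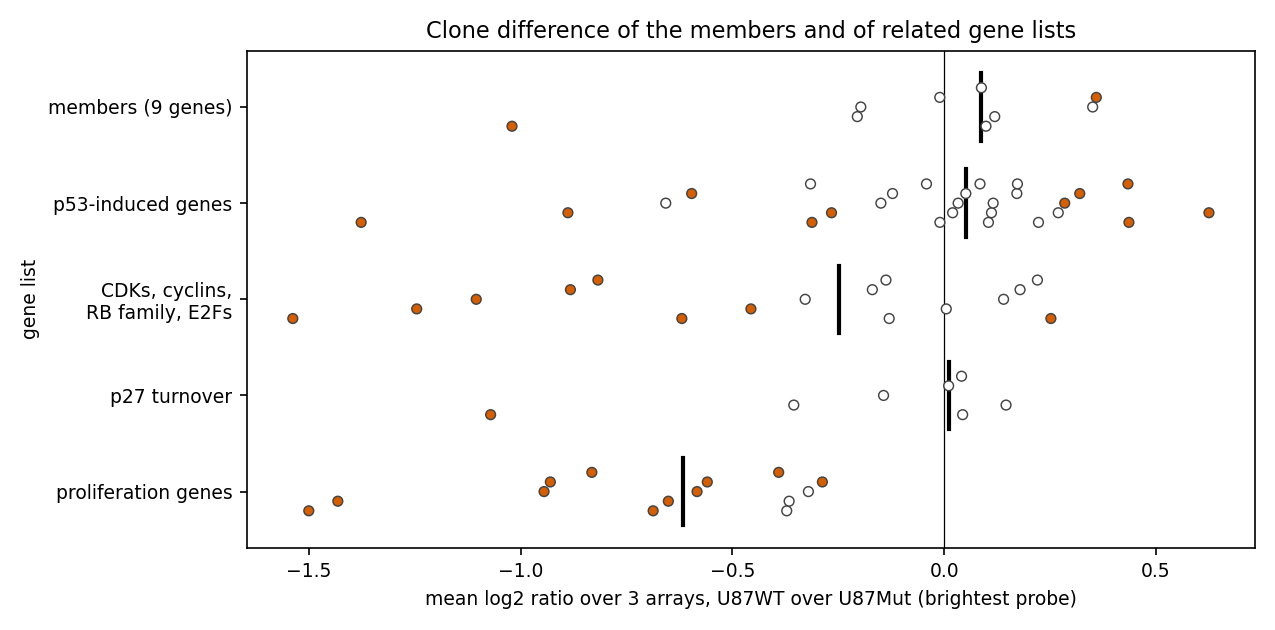
Mean log2 ratio of U87WT over U87Mut over the 3 arrays for the 9 members and for related lists; each point is a gene by its brightest probe, filled where limma called it at an adjusted p under 0.05, and the thick bar is the median of the list. GADD45A is the filled member at -1.02, the p53-induced genes lie on both sides of 0 with a median of 0.05, and the proliferation genes have a median of -0.62.

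The genes most like GADD45A over the 6 channels were sought among 15337 named genes well above background, by the root mean square difference of log2 values centred on the mean of each gene. They were CKS1B (0.0475), the recombination gene RAD54L (0.0486) and the chorionic gonadotropin subunit gene CGB3 (0.0545). CKS1B gave ratios of -0.99, -1.17 and -1.05, close to those of GADD45A on all 3 arrays. CGB3 belongs to a family of near-identical copies, so its probe cannot be tied to 1 copy. The likeness describes 6 channels on 3 arrays, of which all share the clone and dye difference.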

How the data were processed

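Spot intensity was deposited as the scanner software Agilent Feature Extraction 12.0.3.1 gave it, per the file headers, as median and local background brightness on a linear scale, beside its own processed intensity. The authors also deposited normalized log2 ratios as a table with a column for each array. Its direction (U87WT over U87Mut) and log2 scale were taken from its correlation with the ratios computed here (0.989, 0.603 and 0.975; with all spots in the background fit and an offset of 20, 1, 0.9985 and 1, so that the deposited ratios and the alternative with all spots are nearly the same data), its column medians were -0.0066, -0.0074 and -0.003, and it was used only as an alternative. The array design refers to hg19, and no coordinate was taken from it. All sample columns were used (0 left out).

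The software was R 4.3.3, limma 3.58.1 and version 1.17.8 of data.table. Background was removed from each channel by normexp, whose fit left out spots marked as not uniform and whose offset was 50. Arrays were normalized within by loess, in which control spots had no weight, and between by Aquantile. Aquantile set the channel intensities compared within clones and left the log2 ratios as they were. Control spots were removed after normalization. Values of spots marked as not uniform or as population outliers were left out. Spots of a probe were averaged, which gave 58201 probes. RefSeq names were found for 34892 of 36770 probes with a RefSeq transcript. For the clone difference, an intercept was fitted to the 3 arrays by lmFit and eBayes of limma, with Benjamini-Hochberg adjustment at 5%. Where nothing says that RNA came from separate cultures, p values measure the spread between arrays. The steps were tested on simulated data. The number of arrays limits the precision.

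The limit of 0.5 log2 units was set here; the methods of the study word theirs in SD. The members and all lists were chosen with earlier results of these data known. Named are all members, of each other list up to 4 genes with the largest mean size of ratio among those well above background, and for a member past 0.5 on at least 2 arrays the 3 genes most like it. CDK6, MTAP and TOP2A, and the markers and called genes of small counts, were named after their values were seen. Alternatives changed the background fit, the offset (20), the normalization, the limit (1, and 0.5 SD), the probe standing for a gene, the trend of the prior, the source of the ratios and the arrays in the fit. A further alternative kept only probes well above background. Counts of alternatives for a single value include those that could not move it, such as the limit.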

Additional observations from a re-analysis of the deposited data

Results flagged for a closer look

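Responses of opposite sign in the clones were looked for among the 9 members (brightest probe) and 3 contrasts, where both values were beyond 0.071, a limit taken from replicate spots within an array, which does not cover the spread between arrays. Between the serum-free and OSI906 arrays the clone ratios of probes well above background had a spread of 0.143 (SD of the difference, scaled to 1 array). Replicate spots on these arrays had a median SD of 0.0452 and 0.0476. The larger value holds any response to the treatment too. It is a spread of ratios, so the values of a single clone cannot be set against it. The difference between the clones was not tested for any gene below, since each rests on 1 array per condition. MDM2 was 0.31 higher in U87WT and 0.25 lower in U87Mut with OSI906 than with IGF1, a difference of 0.56, while its other probes differed between the clones by -0.24 and 0.16. CDKN2D was 0.10 higher in U87WT and 0.11 lower in U87Mut with IGF1 than in FBS-free medium, a difference of 0.22. With OSI906 against FBS-free medium CDKN2D differed by 0.10 and -0.24, a difference of 0.34. CDKN1C, which is dim, differed by 0.10 and -0.09 with OSI906 against IGF1, a difference of 0.19.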

How the results depend on the processing

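No called result changed its direction. Of the counts, 105 values stayed within 1.5 times and 61 did not. The cause was not tested. Members above 0.5 (0, 0 and 1 on the arrays) numbered 1 in FBS-free medium with an offset of 20, no background correction, scale normalization or the deposited table, and 2 with processed signals; with IGF1, 1 with median normalization; with OSI906, 2 with an offset of 20 or the deposited table, 3 without background correction, 5 with processed signals, and 0 with the mean of probes, a limit of 1 or scale normalization. With a limit of 0.5 SD of each array, added after seeing the data, 2, 1 and 5 lay above and 3, 3 and 2 below. Below -0.5 (1 each) were 0 at a limit of 1 and 3 with median normalization in FBS-free medium, and 2 with IGF1 in the deposited table. In U87WT, IGF1 against FBS-free medium gave 1 (0 before) with all spots in the background fit, an offset of 20, no background correction or no normalization between arrays, and 2 with processed signals. OSI906 against IGF1 (2) gave 1 with the mean of probes and 0 at a limit of 1, and OSI906 against FBS-free medium (1) gave 0 with all spots, a limit of 1 or no normalization between arrays. In U87Mut (0 each), processed signals gave 1, 2 and 2 for IGF1 against FBS-free medium, OSI906 against IGF1 and OSI906 against FBS-free medium, no background correction 2 and 1 for the last 2, and an offset of 20 gave 2 for OSI906 against IGF1. Limma called 5107 probes and 3 member probes; with all spots 720 and 1, with the deposited ratios 785 and 1, with processed signals or median normalization 0 and 0 (3 member probes at an unadjusted p under 0.05 in each), and leaving out 1 array gave 675 to 6284 and 0 to 5 (1902 without the serum-free array and 675 without the OSI906 array, where 4 member probes had an unadjusted p under 0.05). Counts of the other lists under alternatives chosen after seeing the data were, with all spots, 1 higher and 0 lower of the p53-induced genes, 0 higher and 3 lower of the CDK and cyclin list and 3 lower of the proliferation genes, and with processed signals 0 for each list, the p27 turnover list included. Scaling moved the median of all probes by over 0.1 with processed signals (-0.12 and -0.13 for the ratio in FBS-free medium and with IGF1) and, with scale or no normalization between arrays, by -0.115 to -0.1318 for IGF1 and OSI906 against FBS-free medium in both clones. No paired analysis was possible because each condition has 1 array, so that the groups share only 1 replicate number. CDKN2C and CDKN1C are limited by signal over background.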
